A study of Mus musculus with 30 samples.

Results

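Meiosis begins in the juvenile mouse testis as spermatogonia give way to the first spermatocytes, and the comparison described here set 5 non-mutant libraries of testis cells at 12 days post partum (dpp) against 5 at 8 dpp. Non-mutant means animals with both alleles of Prdm9 intact (+/+) or with 1 of them disrupted (+/-). Members were chosen by label: of the 30 libraries of the series, 10 were non-mutant and of these ages, 5 per age. At 8 dpp 3 were +/+ and 2 were +/-. At 12 dpp 1 was +/+ and 4 were +/-. All animals were C57BL/6J with under 10% 129S1/SvImJ, and each library was polyadenylated RNA of cells that the labels call germ cells, enriched by Liberase digestion and washing off of interstitial cells. Litter was read here from a number in the name of each library's column, and the sample titles do not give it. By that number the animals came from 4 litters at 8 dpp and 5 at 12 dpp, so no litter spans both ages. Levels are in TPM, which corrects a gene's reads for transcript length and scales each library to the same total, so that levels can be compared between genes while the read depth is unknown. Each library came from 1 animal. Of 65534 rows in the table, 17611 exceeded 1 TPM in at least 5 of the 10 libraries and were tested. Of these, 70 were at or under 1 TPM in every 8 dpp library and so passed the filter only through their 12 dpp values; 67 of the 70 rose.

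Spermatogonia divide by mitosis until retinoic acid induces Stra8 and its partners, which open the meiotic programme. The cells then replicate their DNA a last time, load meiotic cohesins and axis proteins along each chromosome, cut the DNA with SPO11, search for the homologous chromosome with recombinases such as DMC1, and join the homologues through the synaptonemal complex. PRDM9, a histone methyltransferase of early meiotic prophase, marks the places where the cuts are made. Sertoli cells are the somatic nurse cells of the tubule; over the same days they stop dividing, mature, and begin to seal the blood-testis barrier.

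Libraries are listed in a fixed order wherever single values follow: +/+ replicates 1, 2 and 3 and +/- replicates 1 and 2 at 8 dpp, then +/+ replicate 1 and +/- replicates 1, 2, 3 and 4 at 12 dpp. The first principal component of the tested rows held 46% of the variance and separated the ages. At 8 dpp +/+ replicate 1 and +/- replicate 1 stood apart from the other 3. They were low in transcripts of differentiating and meiotic germ cells: Ddx4, an RNA helicase of germ cells, read 70.5, 108, 92.8, 68.1 and 118 TPM at 8 dpp and 146, 144, 131, 133 and 158 TPM at 12 dpp. Markers of undifferentiated spermatogonia were not low in them as a set. The summed level of that list, which includes Epha2, was 755, 563, 578, 841 and 629 TPM at 8 dpp. The same 2 libraries were high in Amh, the anti-Müllerian hormone of immature Sertoli cells, at 937, 504, 553, 908 and 343 TPM at 8 dpp. Sertoli cell markers as a set were not raised in them. The summed level of that list was 16009, 16200.2, 15962, 15619.5 and 13311 TPM at 8 dpp. Wt1, Cldn11, Gata1 and Rhox8, also Sertoli cell genes, were lowest at 8 dpp in these 2 libraries. Counts of list members are therefore also given without these 2 libraries, called the apart libraries below. Abundant Sertoli cell transcripts such as Clu, clusterin, lay far above Ddx4 in all 10 libraries (3359 to 4370.3 TPM at 8 dpp and 4201 to 5619 at 12 dpp), though other markers of these cells were near or under it, so the preparations hold somatic RNA besides that of germ cells. In bulk RNA, more cells of a type and more RNA per cell cannot be told apart.

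Prdm9 was read first as a check of the labels. It gave 1.82, 5.51, 5.18, 5.4 and 6.1 TPM at 8 dpp and 21.2, 20.5, 16, 23.3 and 9.16 TPM at 12 dpp. The -/- libraries of 8 dpp held 7.38, 6.97, 8.98, 4.77 and 8.03 TPM, not lower as a group than the non-mutant ones. Prdm9 therefore could not check the labels of 8 dpp. The 4 higher values at 12 dpp were all above 8 dpp, and so was the lowest, 9.16 TPM in the library labelled +/- replicate 4, whose -/- litter mate held 19 TPM against 6.34 to 8.16 TPM in the other 12 dpp -/- libraries. That pair goes against its labels, and results are given without that library where it matters. As a row of this comparison Prdm9 rose (log2 fold change 1.72, SE 0.282, limma adjusted p = 0.000761; 1.95 without that library).

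Between 8 and 12 dpp transcripts of meiotic prophase rose together, the matrix and imprinted growth genes of the young testis fell, and Sertoli cell genes moved in both directions. Of the 17611 rows, limma called 5806 at an adjusted p under 0.05 (33.0%), 3548 risen (20.1%) and 2258 fallen (12.8%). Of these, 454 rose by more than 1 on the log2(TPM + 1) scale (2.58%) and 334 fell by more than 1 (1.9%). All 5 libraries of 12 dpp lay above all 5 of 8 dpp in 13.9% of rows and below them in 9.09%. Fold changes are differences of mean log2(TPM + 1), which understate the change of low genes. The median change over all rows tested was 0.085, so the list medians below are read against that value. Lists share members, as Dazl, Hormad1 and Sycp3 each stand in more than 1, so the counts of different lists are not independent. The share of risen rows among those called was 61.1% on TPM, but 48.4% after median-ratio scaling (2847 risen and 3039 fallen) and 51.8% after quantile normalization (3032 and 2821). Without both 8 dpp libraries that stand apart 4117 rows were called, 2319 risen and 1798 fallen, of which 3794 had been called with all 10; all of these kept their sign. Without the library labelled +/- replicate 4 at 12 dpp 4720 were called. Since +/+ animals are more frequent at 8 dpp, a fit with genotype as a covariate was made and called 4550 rows, and the 6 +/- libraries alone gave 2489.

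**Figure D1:**
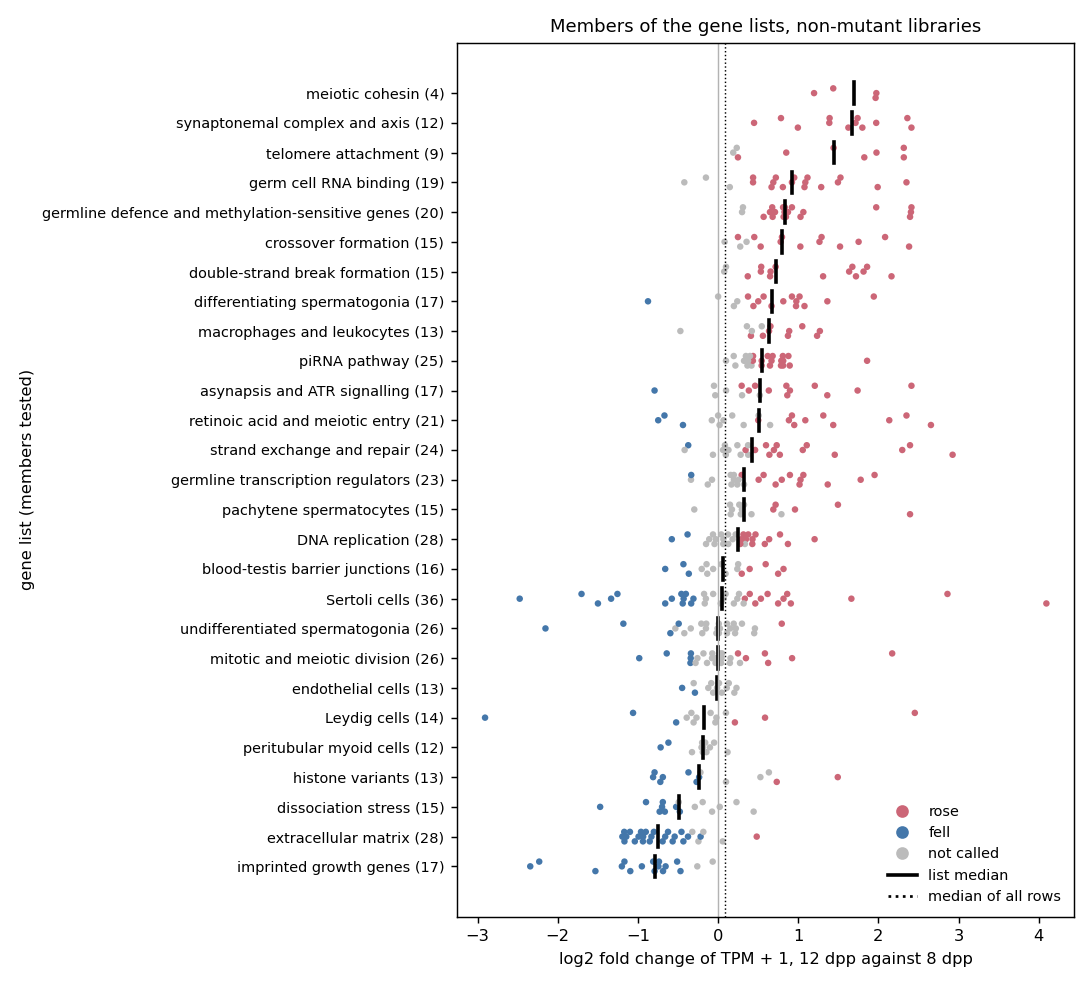
Log2 fold change of TPM + 1 at 12 dpp against 8 dpp (x axis) for every tested member of 27 gene lists (rows, with the number tested); red points rose, blue fell and grey were not called, a black bar is the list median and the dotted line the median of all rows (0.085). The meiotic cohesin and synaptonemal complex lists lie wholly to the right of zero, the matrix and imprinted lists almost wholly to the left, and the Sertoli cell list spans -2.47 to 4.10.

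Among genes with an approved-style symbol and a mean of at least 1 TPM, the 15 with the largest rise included 6 on the X chromosome. Rhox5, an X-linked homeobox gene of Sertoli cells (chromosome X, 37804842 to 37808876, GRCm38), read 2.24, 9.93, 3.38, 3.16 and 7.04 TPM at 8 dpp and 108, 90.8, 95.2, 76.4 and 101 TPM at 12 dpp (log2 fold change 4.10, SE 0.278, limma adjusted p = 3.74e-06). Its lowest value at 12 dpp was far above its highest at 8 dpp. Nxf3, a member of the mRNA export factor family (chromosome X, 136072099 to 136085255), read 8.99, 17.3, 13.3, 11.7 and 13.2 TPM at 8 dpp and 243, 173, 191, 91.1 and 154 TPM at 12 dpp. Tpbgl, a relative of the trophoblast glycoprotein (chromosome 7, 99624082 to 99627103), read 0.24, 1.44, 1.07, 0.51 and 1.63 TPM at 8 dpp and 37.7, 48.5, 51.3, 15 and 16.7 TPM at 12 dpp, and neither gene's groups overlapped. Pcsk1n, which encodes an inhibitor of a prohormone convertase, had the smallest adjusted p of these (log2 fold change 3.44, SE 0.115, limma adjusted p = 8.23e-09). The others, in order, were Ly6k, a GPI-anchored protein of germ cells (3.40), Gja6, a connexin (3.37), Prss50, a testis serine protease relative (3.18), Meiob, a single-stranded DNA binding protein of meiotic recombination (2.93), and Tsx (2.86). Rubcnl (2.83), Sncb (2.62), Sept14, a septin (2.61), B4galnt1, a ganglioside synthase (2.59), Lpar3, a lysophosphatidic acid receptor (2.58), and Scml1, a Polycomb-related gene (2.55), completed the set. All 12 dpp libraries lay above all 8 dpp libraries in each of the 15, which were chosen for the size of their rise, and Gja6, Rubcnl and Scml1 passed the filter only through their 12 dpp values.

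The 15 genes with the largest fall, chosen in the same way, included 2 hydroxysteroid dehydrogenases. Hsd17b3, the enzyme that makes testosterone from androstenedione (chromosome 13, 64058266 to 64089230), read 164, 154, 149, 174 and 119 TPM at 8 dpp and 12.6, 21.4, 9.08, 42.8 and 24.5 TPM at 12 dpp (log2 fold change -2.91, SE 0.308, limma adjusted p = 4.52e-05). Its highest 12 dpp value was well under its lowest 8 dpp value. Elf3, an epithelial transcription factor, fell by 2.76 on the log2 scale, Aqp12, an aquaporin, by 2.55, Hsd17b1, an estradiol-forming enzyme, by 2.47, and Lgals7, a galectin, by 2.46. Cbln4 (-2.41), F2r, a thrombin receptor (-2.39), Tubb2b, a beta tubulin (-2.35), Nnat, an imprinted proteolipid (-2.34), and Sfn, a 14-3-3 protein (-2.28), followed. Gsg1l (-2.25), the imprinted RNA H19 (-2.23), Thbs1, thrombospondin 1 (-2.23), Adamts16, a secreted protease (-2.22), and Ptgds, a prostaglandin D synthase (-2.22), were the last of the 15, none of them X-linked. F2r and Sfn were much higher in the 2 apart libraries of 8 dpp (125, 54.7, 58.6, 141 and 59.7 TPM for F2r) and changed by -1.91 and -1.68 without them.

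The genes of meiotic entry rose, while the enzymes and carriers of retinoic acid moved both ways. Stra8, the retinoic acid responsive regulator that commits cells to meiosis, read 41.7, 91.2, 83.4, 33 and 99.2 TPM at 8 dpp and 167, 147, 165, 158 and 163 TPM at 12 dpp (log2 fold change 1.31, SE 0.260, limma adjusted p = 0.00244). Its 5 values at 12 dpp spanned a narrow range above the highest 8 dpp value. Gm4969, the gene that RefSeq names Bhmg1, which encodes the basic helix-loop-helix partner of STRA8 known as MEIOSIN, read 6.23, 6.97, 13.8, 5.05 and 15 TPM at 8 dpp and 49.3, 55.9, 52.2, 76.9 and 68.2 TPM at 12 dpp (log2 fold change 2.66, SE 0.255, limma adjusted p = 2.12e-05). Meioc, an RNA regulator needed to leave the mitotic cycle, rose by 2.35, its partner Ythdc2 by 1.09, and Rec8, a meiotic cohesin subunit that retinoic acid induces, by 1.44. Aldh1a2, a retinaldehyde dehydrogenase present in spermatocytes, read 8.74, 13.5, 11.2, 7.29 and 17.1 TPM at 8 dpp and 46.4, 58.5, 40.1, 62.5 and 56.7 TPM at 12 dpp, whereas Aldh1a1, the Sertoli cell form, read 1473, 1404, 1310.5, 1383 and 1252 TPM at 8 dpp and 833, 877, 854, 905 and 818 TPM at 12 dpp. The first rose by 2.14 and the second changed by -0.67, and neither gene's groups overlapped. Crabp1, a retinoic acid binding protein (0.88), and Rarg, a receptor (0.50), rose, and Stra6, a retinol transporter (-0.75), and Dhrs4 (-0.44) fell. In that list 10 rose and 3 fell of 21 tested (10 and 3 of 21 without the 2 apart libraries), with a median log2 fold change of 0.51. Cyp26b1, which degrades retinoic acid, was at 90.8, 96.9, 113, 80.5 and 128 TPM at 8 dpp and 87.3, 113, 169.9, 117 and 159.8 TPM at 12 dpp and was not called (limma adjusted p = 0.178).

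**Figure D2:**
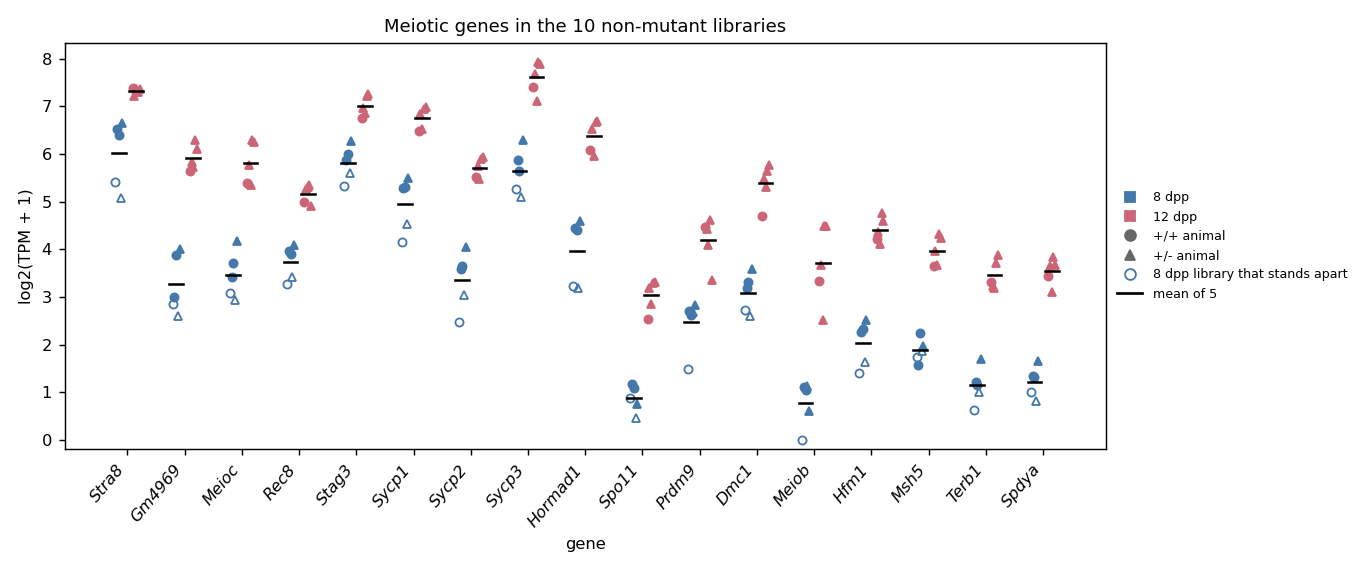
Level of 17 meiotic genes (x axis) as log2(TPM + 1) (y axis) in each of the 10 non-mutant libraries, blue for 8 dpp and red for 12 dpp, circles for +/+ and triangles for +/- animals, open symbols for the 2 libraries of 8 dpp that stand apart and bars for the mean of 5. For each gene shown the 12 dpp libraries lie above the 8 dpp libraries, and the open symbols are mostly the lowest of their age.

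Promoter sequences of the RefSeq annotation (build GRCm38.p6) were matched to 78 of 98 tested members of the 7 lists from meiotic entry to telomere attachment. The 250 bases before the transcription start were searched on both strands for the letters TCCCGC, an E2F-type site bound by E2F and by E2F6 with its Polycomb partners, and CACGTG, the E-box bound by MAX and its relatives. Both sites are known for keeping germline genes silent in somatic cells, and E2F-type sites also serve DNA replication genes. Of all 78 members 47.4% held the E2F-type letters and 16.7% the E-box, whether or not they rose. Of the 57 risen ones 28 held the E2F-type letters (49.1%) and 11 the E-box (19.3%). Over all 11041 tested rows with a promoter the shares were 30.6% and 8.57%. They were 31.6% and 9.57% over the 2538 risen ones and 31.9% and 7.16% over the 1565 fallen ones. Over all 27025 promoters of the annotation, 1 per symbol and whether or not matched to a row, they were 16.9% and 6.05%. Rows risen by more than 1 on the log2 scale held the E2F-type letters in 26.2% of 320 promoters. The MYB site TAACNG stood in 24.6% of the 57 and 15.8% of the tested promoters, and the cyclic AMP response element TGACGTCA in 3.51% and 2.77%. Both the E2F-type site and the E-box stood in 5 of the 57 (8.77%), against 2.93% of tested promoters. These 5 were Gm4969, Hormad1, Sycp3, Tex12 and Rbm46. Of these, 4 are printed below 5′ to 3′ on the gene's strand because they carry both kinds of site before genes of meiotic entry, the chromosome axis and RNA control that rose; capitals mark both kinds of site in either orientation.
Gm4969: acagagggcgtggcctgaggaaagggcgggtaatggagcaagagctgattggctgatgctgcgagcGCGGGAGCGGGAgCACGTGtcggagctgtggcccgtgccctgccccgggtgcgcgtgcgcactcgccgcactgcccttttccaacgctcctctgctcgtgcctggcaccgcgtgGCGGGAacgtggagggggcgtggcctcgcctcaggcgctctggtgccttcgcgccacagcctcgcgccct
Hormad1: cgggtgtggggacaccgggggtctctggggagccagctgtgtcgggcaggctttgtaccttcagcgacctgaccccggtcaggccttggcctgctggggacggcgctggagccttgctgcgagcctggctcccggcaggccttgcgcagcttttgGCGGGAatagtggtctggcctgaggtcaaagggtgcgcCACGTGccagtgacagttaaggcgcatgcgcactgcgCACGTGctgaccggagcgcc
Sycp3: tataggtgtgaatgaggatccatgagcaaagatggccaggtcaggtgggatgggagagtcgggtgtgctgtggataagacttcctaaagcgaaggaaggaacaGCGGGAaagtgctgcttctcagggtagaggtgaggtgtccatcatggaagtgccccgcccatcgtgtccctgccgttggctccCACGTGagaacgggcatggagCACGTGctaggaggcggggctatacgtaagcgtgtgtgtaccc
Rbm46: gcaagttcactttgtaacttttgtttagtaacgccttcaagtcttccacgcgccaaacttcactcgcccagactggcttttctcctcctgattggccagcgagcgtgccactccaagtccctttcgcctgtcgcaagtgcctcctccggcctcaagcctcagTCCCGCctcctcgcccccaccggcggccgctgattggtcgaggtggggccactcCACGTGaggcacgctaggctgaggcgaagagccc
The Gm4969 window (chr7:19118345-19118594, - strand) has E2F-type sites that begin 184, 178 and 70 bases before the start and an E-box that begins 171 bases before it. The Hormad1 window (chr3:95559427-95559676, + strand) has an E2F-type site 95 bases before the start and E-boxes at 57 and 20. In the Sycp3 window (chr10:88459337-88459586, + strand) the E2F-type site begins 147 bases before the start and the E-boxes at 64 and 43. In the Rbm46 window (chr3:82876484-82876733, - strand) they begin 88 and 34 bases before it. A match is a description of the letters and shows no binding.

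The cohesin ring that is particular to meiosis and the axial elements built on it rose without exception. All 4 meiotic cohesin subunits rose, also without the apart libraries: Rad21l (1.97), Smc1b (1.97), Rec8 and Stag3. Stag3 read 39.1, 57.6, 63.3, 47.8 and 76.4 TPM at 8 dpp and 106, 125, 116, 149 and 153 TPM at 12 dpp. Its levels at 8 dpp already exceeded those of Rad21l, at 2.16, 4.4, 2.99, 1.72 and 7.34 TPM, in every library. The mitotic cohesin list had a median of 0.11, and 3 rose and 1 fell of 12 tested (3 and 1 of 12 without the 2 apart libraries). In the synaptonemal complex and axis list 12 rose and 0 fell of 12 tested (11 and 0 of 12 without the 2 apart libraries), with a median of 1.67, and the groups of all 12 did not overlap (13.9% of all rows lay apart in that direction). Without the 2 apart libraries the median was 1.26. Sycp3, a lateral element protein, read 37.3, 57.6, 48.8, 33.4 and 77.7 TPM at 8 dpp and 169, 205, 138, 244 and 235 TPM at 12 dpp (log2 fold change 1.97, SE 0.216, limma adjusted p = 5.29e-05). Hormad1, an axis protein that marks unsynapsed chromosomes, read 8.43, 20.8, 20.1, 8.06 and 23.3 TPM at 8 dpp and 66.4, 91.5, 60.8, 101 and 103 TPM at 12 dpp (log2 fold change 2.41, SE 0.286, limma adjusted p = 8.87e-05). Sycp1, the transverse filament that closes the complex, read 16.8, 38.3, 38.3, 22.1 and 44.2 TPM at 8 dpp and 89, 113, 90.7, 122 and 126 TPM at 12 dpp (log2 fold change 1.80, SE 0.230, limma adjusted p = 0.00014). In these genes the lowest 8 dpp values were those of the apart libraries. Central element genes rose as well: Syce3 by 1.72, Tex12 by 1.63, Syce1 by 1.39 and Syce2 by 1.0. Syce2 stood at 56.2, 65.4, 71.4, 41.1 and 69.1 TPM at 8 dpp.

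Genes that make and place the DNA breaks rose in the list as a whole: 13 rose and 0 fell of 15 tested (11 and 0 of 15 without the 2 apart libraries), with a median of 0.72. Spo11, the nuclease that cuts, read 0.85, 1.26, 1.11, 0.38 and 0.68 TPM at 8 dpp and 4.77, 8.1, 6.25, 8.8 and 8.91 TPM at 12 dpp (log2 fold change 2.16, SE 0.191, limma adjusted p = 1.35e-05). It was thus at or near the 1 TPM filter at 8 dpp and above 4 TPM in each 12 dpp library. Mei1, which acts with it, rose by 1.82, Gm960, the symbol used here for Top6bl, the second subunit of the nuclease, by 1.68, and Ccdc36, the axis-bound break factor IHO1, by 1.64. Rec114 (0.37) and Mei4 (0.65) rose too, but were not called without the apart libraries (limma adjusted p = 0.0792 and 0.0763). Zcwpw1, a reader of the histone marks that PRDM9 places, read 39.1, 65.9, 73.8, 45.4 and 81 TPM at 8 dpp and 128, 156, 129, 159 and 169 TPM at 12 dpp, and Hells, a chromatin remodeller that works with PRDM9, rose by 0.72. Nbn and Cxxc1 were not called, at 0.10 and 0.08.

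Strand exchange and repair genes mostly rose, those particular to meiosis among them. Dmc1, the meiotic recombinase, read 5.63, 8.13, 8.87, 5.05 and 11.1 TPM at 8 dpp and 24.9, 43.7, 38.5, 49.1 and 53.9 TPM at 12 dpp (log2 fold change 2.30, SE 0.224, limma adjusted p = 2.36e-05). Its lowest 12 dpp value lay above its highest 8 dpp value. Meiob, one of the 15 leading genes, read 0, 1.15, 1.07, 1.2 and 0.51 TPM at 8 dpp and 9.12, 11.7, 4.74, 21.6 and 21.4 TPM at 12 dpp, and Hsf2bp, which brings BRCA2 to meiotic breaks, rose by 1.46. Of the list 1 member passed the filter only through its 12 dpp values. Brca2, a mediator of homologous recombination, rose by 1.06 and its partner Palb2 by 0.70. Mnd1, a helper of DMC1, was the exception in direction, at 19, 17.1, 16.4, 17.1 and 17.4 TPM at 8 dpp and 13.4, 12.8, 12.6, 14.1 and 13.2 TPM at 12 dpp (log2 fold change -0.37, SE 0.086, limma adjusted p = 0.00612), and its partner gene Psmc3ip was not called at 0.38. In the list 13 rose and 1 fell of 24 tested (11 and 1 of 24 without the 2 apart libraries), with a median of 0.42. Crossover genes gave 12 risen and 0 fallen members of 15 tested (8 and 0 of 15 without the 2 apart libraries), with a median of 0.80. Hfm1, a meiotic helicase, read 1.63, 3.81, 3.99, 2.09 and 4.73 TPM at 8 dpp and 17.5, 19.7, 16.4, 26 and 23 TPM at 12 dpp, and the pair Msh4 and Msh5, which stabilise recombination intermediates, rose by 1.52 and 2.08. X-linked Tex11 rose by 1.29. Cntd1, which acts late in crossover formation, was at 4.16, 5.7, 4.14, 4.63 and 5.13 TPM at 8 dpp and 8.12, 15.5, 8.71, 13.1 and 9.47 TPM at 12 dpp and at 61.2 ± 21.3 TPM (SD, n = 5) in non-mutant libraries of 16 dpp.

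Transcripts of most genes that tether chromosome ends to the nuclear envelope in meiotic prophase rose. Terb1 read 0.54, 1.33, 1.23, 1.0 and 2.25 TPM at 8 dpp and 8.9, 8.36, 8.05, 12.1 and 13.6 TPM at 12 dpp (log2 fold change 2.32, SE 0.208, limma adjusted p = 1.48e-05). Spdya, the CDK2 activator at telomeres, rose by 2.32, Majin by 1.98, Terb2 by 1.44 and Ccdc155, the envelope protein KASH5, by 1.82. The envelope protein Sun2 rose by 0.85, and Sun1, at 76.5, 75.3, 93.3, 83.8 and 86.3 TPM at 8 dpp and 76.3, 92.2, 94.6, 113 and 100.4 TPM at 12 dpp, was not called. Of the list 7 rose and 0 fell of 9 tested (6 and 0 of 9 without the 2 apart libraries). Genes of the checkpoint that silences unpaired chromosomes gave 11 risen and 1 fallen members of 17 tested (8 and 1 of 17 without the 2 apart libraries), with a median of 0.52. Atr, its kinase, read 19.4, 29.5, 31.7, 22.6 and 34 TPM at 8 dpp and 63, 65.9, 69.1, 78.6 and 77.9 TPM at 12 dpp (log2 fold change 1.36, SE 0.141, limma adjusted p = 3.64e-05), and Mdc1, which spreads its signal along chromatin, rose by 0.85. H2afx, the histone variant that these kinases mark, fell, from 109, 76.3, 86.2, 110.5 and 79 to 44.3, 54.5, 44.5, 67.5 and 53.1 TPM (log2 fold change -0.79, SE 0.136, limma adjusted p = 0.00104).

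Germ cell RNA regulators and genome defence genes, many of which are active from spermatogonia on, also rose. Dazl, an RNA binding protein that licenses germ cells for meiosis, read 148, 214, 218, 127 and 256 TPM at 8 dpp and 356, 387, 314, 337 and 383 TPM at 12 dpp (log2 fold change 0.92, SE 0.163, limma adjusted p = 0.00124). The RNA binding list gave 16 risen and 0 fallen members of 19 tested (15 and 0 of 19 without the 2 apart libraries), with a median of 0.92. Boll, a relative of Dazl, rose by 1.99, Cpeb1, a regulator of synaptonemal complex messengers, by 1.53, Ybx2, a messenger storing protein, by 1.5 and Adad1 by 1.29. In the piRNA pathway list 16 rose and 0 fell of 25 tested (15 and 0 of 25 without the 2 apart libraries), with a median of 0.54. Tex15, also a silencer of transposons, read 15.9, 26.4, 30.2, 22.7 and 41.2 TPM at 8 dpp and 80.1, 82, 118, 98.7 and 113 TPM at 12 dpp, and Mov10l1, the helicase that feeds piRNA precursors into the pathway, read 42.6, 46.4, 52.9, 45.5 and 65.5 TPM at 8 dpp and 93.7, 87.5, 74.2, 91.6 and 96.5 TPM at 12 dpp. Both moved apart between the ages. Piwil2 rose by 0.54, and Piwil1, the PIWI protein of pachytene, was at 1.59, 2.43, 2.41, 2.54 and 2.71 TPM at 8 dpp and 4.47, 3.2, 2.87, 2.93 and 3.84 TPM at 12 dpp and was not called (limma adjusted p = 0.0523). Of 105 listed piRNA precursor loci 2 passed the filter and both rose, 1 of them passing only through its 12 dpp values.

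Genes that DNA methylation or Polycomb repress outside the germline gave 18 risen and 0 fallen members of 20 tested (18 and 0 of 20 without the 2 apart libraries), with a median of 0.83. Several of them, such as Dazl, Sycp3, Hormad1, Mael and Asz1, were also counted in lists above. Tex101, a surface protein of germ cells, read 36.5, 59, 67.9, 40.5 and 82.7 TPM at 8 dpp and 233, 339.8, 218, 379 and 325 TPM at 12 dpp (log2 fold change 2.40, SE 0.220, limma adjusted p = 1.70e-05), and Dpep3, which binds TEX101, rose by 2.41. Both were lowest in the 2 apart libraries of 8 dpp. Taf7l, an X-linked relative of a general transcription factor subunit, rose by 1.06, and Brdt, a bromodomain protein of spermatocytes, by 1.03. Among transcription regulators of the germline 12 rose and 1 fell of 23 tested (11 and 1 of 23 without the 2 apart libraries), with a median of 0.32. Zfp541, a regulator of the passage to pachytene, read 1.21, 2.09, 2.29, 1.45 and 3.38 TPM at 8 dpp and 7.52, 11.1, 9.39, 15.2 and 11.1 TPM at 12 dpp, and its partner Kctd19 read 0.06, 0.35, 0.38, 0.27 and 0.34 TPM at 8 dpp and 2.67, 5.17, 1.94, 5.74 and 2.57 TPM at 12 dpp. Neither pair of groups overlapped, and Kctd19 passed the filter only through its 12 dpp values. E2f6, which represses germline genes in somatic cells, was the single fallen member, at 47.8, 44.9, 46.2, 49 and 46.5 TPM at 8 dpp and 36.6, 37.6, 38.4, 34.9 and 37.5 TPM at 12 dpp (log2 fold change -0.33, SE 0.064, limma adjusted p = 0.00201). Mybl1, the master regulator of pachytene genes, was not called, at 0.32 (limma adjusted p = 0.0618), although its 12 dpp values of 25.1, 17.1, 17.5, 18.9 and 16.3 TPM all lay above those of 8 dpp.

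Most markers of undifferentiated spermatogonia were not called: 1 rose and 4 fell of 26 tested (1 and 3 of 25 without the 2 apart libraries), with a median of 0.00. Zbtb16, the transcription factor PLZF of spermatogonial progenitors, read 23.5, 23.8, 28.3, 29.2 and 29.5 TPM at 8 dpp and 36.3, 23.9, 26.1, 26.5 and 34 TPM at 12 dpp (log2 fold change 0.11, limma adjusted p = 0.518). Gfra1, the receptor for the Sertoli cell factor GDNF, was at 10.2 to 14.6 TPM at 8 dpp and 8.94 to 18.6 at 12 dpp, Id4 at 12.3 to 15.4 and 10.9 to 16.2, and Sall4 at 19 to 30.5 and 24 to 40.8; none was called and their groups overlapped. Etv5, a GDNF target, fell (log2 fold change -0.59, SE 0.146, limma adjusted p = 0.00829), as did Shisa6 (-1.18) and Epha2, an ephrin receptor. Epha2 read 311, 112, 127, 323 and 109.8 TPM at 8 dpp and 39.8, 30.8, 28.1, 63.2 and 37.6 TPM at 12 dpp, highest in the 2 apart libraries of 8 dpp, and changed by -1.58 without them against -2.15 with them. At 8 dpp it lay far above Zbtb16, Gfra1, Id4 and Sall4 in every library, and which cells held its transcripts was not tested. Pou5f1 was the fourth called fallen, at -0.49 (limma adjusted p = 0.0437), a call that was kept without +/+ replicate 1 of either age and lost without any other single library (adjusted p 0.0548 to 0.0955). Taf4b, a TFIID subunit of germ cells, was the single risen member (0.80).

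Markers of differentiating spermatogonia rose: 13 rose and 1 fell of 17 tested (11 and 1 of 17 without the 2 apart libraries), with a median of 0.67, or 0.43 without those libraries. Kit, the receptor that marks differentiation, read 15.8, 28.5, 31.8, 20.2 and 34.9 TPM at 8 dpp and 40.4, 48, 54.5, 51.2 and 61.1 TPM at 12 dpp (log2 fold change 0.98, SE 0.191, limma adjusted p = 0.00227; 0.66 without the apart libraries). Tex14, which keeps the bridges between germ cells open, rose by 0.81, Lin28b by 0.97, and X-linked Esx1 and Rhox13 by 1.94 and 1.36. Ccnd2, a D-type cyclin, went the other way, from 125, 110.4, 138, 136 and 106 to 59.7, 61.9, 64.5, 77.3 and 69.6 TPM (log2 fold change -0.87, SE 0.095, limma adjusted p = 5.17e-05). Sohlh1 and Dmrt1 were not called, at 0.24 and 0.20.

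Replication genes rose more often than they fell, and division genes moved both ways. Of all rows tested 20.1% rose and 12.8% fell, and the counts of division genes lay near those shares. The risen count of replication genes lay above that share with all 10 libraries, but it dropped from 13 to 6 without the 2 apart libraries. The replication list gave 13 risen and 2 fallen members of 28 tested (6 and 2 of 28 without the 2 apart libraries), with a median of 0.25. Ccne2, a cyclin of S phase, read 10.5, 15.7, 17.6, 9.25 and 18.9 TPM at 8 dpp and 30.5, 32.6, 24.7, 38 and 43.8 TPM at 12 dpp (log2 fold change 1.2, SE 0.20, limma adjusted p = 0.000847), and Pole, the leading strand polymerase, rose by 0.77. Tyms, which makes thymidylate, fell (-0.58), and of the MCM helicase subunits Mcm5 rose by 0.35 (limma adjusted p = 0.0707 without the apart libraries) while Mcm2, Mcm3, Mcm4, Mcm6 and Mcm7 were not called. Division genes gave 6 risen and 5 fallen members of 26 tested (4 and 4 of 25 without the 2 apart libraries), with a median of 0.00. Cdk1, the kinase of M phase, read 149.5, 133, 139, 146 and 106 TPM at 8 dpp and 67.6, 73.1, 57.7, 70.2 and 69 TPM at 12 dpp (log2 fold change -0.98, SE 0.098, limma adjusted p = 2.75e-05), and Ccnb2, one of its cyclins, changed by -0.64. Ccnb3, an X-linked cyclin of early meiotic prophase, rose instead, from 0.9, 1.67, 2.51, 1.62 and 3.94 to 8.15, 11.6, 11.7, 17.4 and 14.9 TPM (log2 fold change 2.17, SE 0.252), and Bub1, a spindle checkpoint kinase, by 0.92. The proliferation marker Mki67 read 37.5, 36.9, 49.8, 40.4 and 39.9 TPM at 8 dpp and 32.8, 39.7, 41.6, 49.1 and 49.6 TPM at 12 dpp and was not called.

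Genes of later spermatocytes were mostly still low. Of 23 markers of pachytene spermatocytes 15 were tested, and 5 rose and 0 fell (6 and 0 without the 2 apart libraries), with a median of 0.32. Ldhc, a lactate dehydrogenase isoform found in germ cells, read 2.22, 2.62, 3.84, 2.77 and 3.68 TPM at 8 dpp and 2.04, 4.27, 1.99, 1.8 and 1.66 TPM at 12 dpp (limma adjusted p = 0.28) and 42 to 602 TPM at 16 dpp. Hspa2, a heat shock protein of pachytene, read 51.2, 41.7, 40.8, 49.8 and 42.9 TPM at 8 dpp and 50.2, 58.1, 49.1, 69 and 51.4 TPM at 12 dpp and 139 to 346 TPM at 16 dpp. Fabp9 and Crisp2 stayed at 1.05 to 5.4 and 0.26 to 1.23 TPM at 12 dpp. By contrast Tex101, Ybx2, Clgn (0.96), Tcfl5 (0.72) and Ddx25 (0.69) had risen by 12 dpp. Of 18 spermatid markers 1 exceeded the filter and 3 were at 0 in all 10 libraries, among them the protamine gene Prm2.

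**Figure D3:**
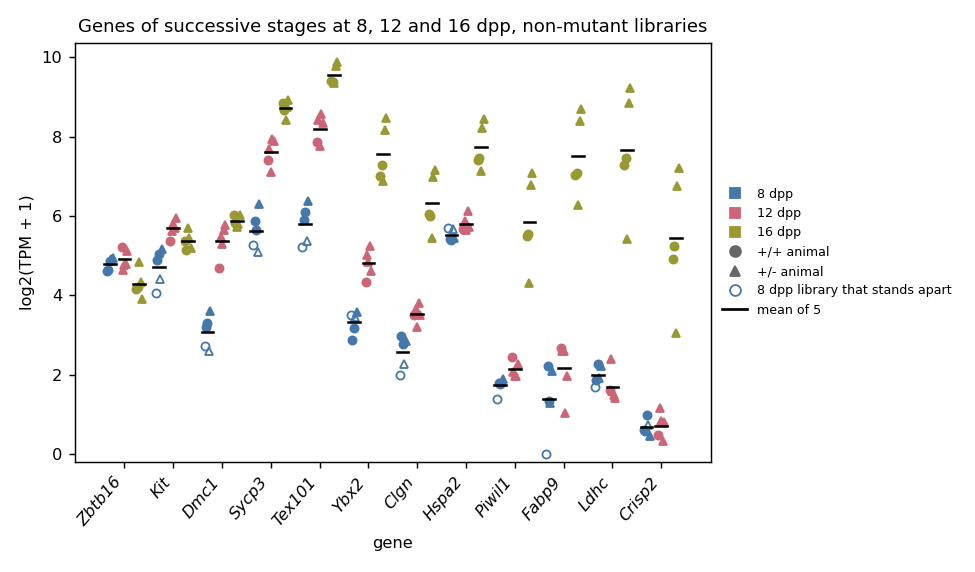
Level of 12 genes of successive stages (x axis) as log2(TPM + 1) (y axis) in non-mutant libraries at 8 dpp (blue), 12 dpp (red) and 16 dpp (olive), 5 libraries per age, with circles for +/+, triangles for +/-, open symbols for the 2 apart libraries of 8 dpp and bars for means. Dmc1 and Sycp3 rose by 12 dpp, Piwil1, Fabp9, Ldhc and Crisp2 were low at both younger ages, and Zbtb16 overlapped between 8 and 12 dpp. The 16 dpp libraries are shown for reference and were not tested against the others.

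Strongly risen rows were more frequent on the X chromosome than on any autosome. Of 644 X-linked rows tested 213 rose (33.1%) and 106 fell (16.5%), against 21.5% and 14.4% of 13669 autosomal rows. By more than 1 on the log2 scale rose 84 X-linked rows (13%) and 308 autosomal rows (2.25%), and the share ran from 1.14 to 3.33% over the single autosomes. These counts hold 7 X-linked and 22 autosomal rows that passed the filter only through their 12 dpp values. Over the other rows the shares were 77 of 637 (12.1%) and 286 of 13636 (2.1%). Without the 2 apart libraries 156 rose and 98 fell of 635. The median change of X-linked rows was 0.14, against 0.08 for autosomal rows. X-linked germ cell genes in the lists included Tex11, Taf7l, Esx1, Rhox13 and Ccnb3, while Rhox5 and Tsx belong to the Sertoli cell list. Among the 7 passing through 12 dpp alone, Gja6 was at 0.46, 0.7, 0.41, 0.31 and 0.94 TPM at 8 dpp and 21.8, 18.2, 17.1, 7.86 and 13.7 TPM at 12 dpp, and Scml1 was at 0, 0.33, 0.63, 0 and 0 TPM at 8 dpp and 4.79, 7.37, 5.48, 7.12 and 4.87 TPM at 12 dpp. In the Rhox homeobox cluster, 14 of 30 genes were tested, and 4 rose and 1 fell. Rhox8, a Sertoli cell gene of that cluster, was the fallen one, at 324, 426, 371, 339.7 and 342 TPM at 8 dpp and 253, 296, 298, 299 and 307 TPM at 12 dpp (log2 fold change -0.31, SE 0.082, limma adjusted p = 0.0125). Rows of the near-identical Rhox2, Rhox3 and Rhox4 copies are uncertain, since reads may be split among them.

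**Figure D4:**
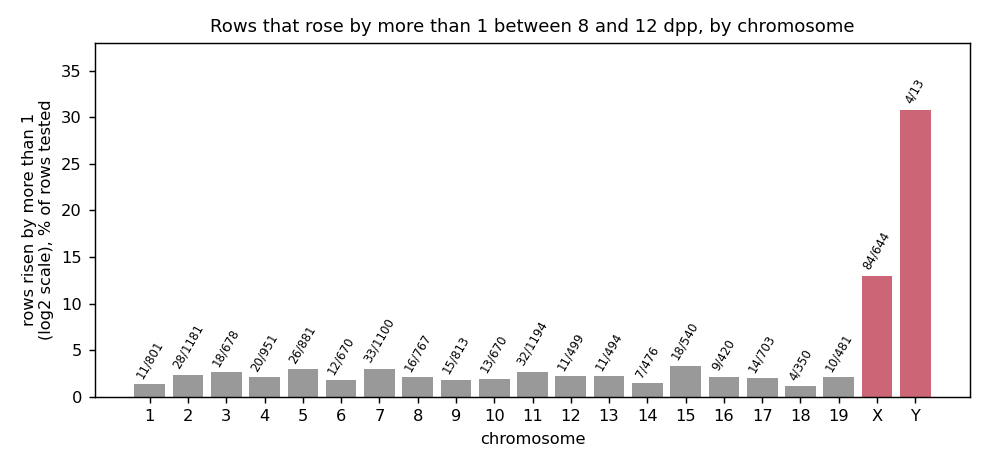
Share of tested rows that were called and rose by more than 1 on the log2 scale (y axis, %) for each chromosome (x axis), with the numbers of risen and tested rows above each bar. The X chromosome, at 13%, and the Y chromosome, with 4 of 13 rows, stand above all autosomes, which lie between 1.14 and 3.33%; 2 of the 4 Y-linked rows, Zfy1 and Zfy2, and 7 of the 84 X-linked rows passed the filter only through their 12 dpp values.

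On the Y chromosome some genes rose and others were not called. Of 9 listed genes tested 5 rose and 0 fell, against 20.1% and 12.8% of all rows. Of the 5 risen, 2 passed the filter only through their 12 dpp values, so their rise was favoured by the filter. Zfy1 and Zfy2, zinc finger proteins of spermatogenesis, were close to 1 TPM or under it at 8 dpp: Zfy1 read 0.47, 0.82, 0.93, 0.42 and 1.0 TPM at 8 dpp and 2.73, 3.32, 2.74, 4.16 and 2.99 TPM at 12 dpp. Zfy2 read 0.2, 0.56, 0.46, 0.14 and 0.16 TPM at 8 dpp and 2.04, 2.67, 1.27, 5.06 and 5.01 TPM at 12 dpp, and both passed the filter only through their 12 dpp values. Usp9y rose by 1.17, Uba1y by 0.65 and Rbmy, a multicopy RNA binding gene whose copies share reads, by 1.12. Ddx3y, Uty, Kdm5d and Eif2s3y had log2 fold changes of -0.06, -0.00, -0.20 and 0.19 and were not called. The list median of 0.65 fell to between 0.14 and 0.21 when any one 12 dpp library was left out, since Zfy1 and Zfy2 then no longer pass it.

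Sertoli cell genes split. In the list 12 rose and 13 fell of 36 tested (10 and 10 of 36 without the 2 apart libraries), and the median was 0.05. Among the fallen members, Amh read 937, 504, 553, 908 and 343 TPM at 8 dpp and 245, 233, 204, 272 and 249 TPM at 12 dpp (log2 fold change -1.33, SE 0.229, limma adjusted p = 0.00103; -0.93 without the apart libraries). Gdnf, the Sertoli cell signal that sustains spermatogonial stem cells, read 33.2, 30.8, 29, 25.4 and 19 TPM at 8 dpp and 8.72, 7.82, 10.7, 9.31 and 8.36 TPM at 12 dpp (log2 fold change -1.5, SE 0.143, limma adjusted p = 2.06e-05). Hsd17b1 went from 70.8, 57.6, 68.2, 66.2 and 43.8 to 7.51, 7.54, 8.16, 17.7 and 12.3 TPM. None of these genes overlapped between ages. Inhba, an activin subunit, fell by 1.25 on the log2 scale, Gja1, the connexin of Sertoli cell junctions, by 0.66, Dhh, the hedgehog signal to Leydig and myoid cells, by 0.46, Kitl, the ligand of KIT, by 0.43, and Fshr, the FSH receptor, by 0.40. The risen members included Rhox5. Tsx read 1.46, 3.2, 2.78, 3.02 and 3.81 TPM at 8 dpp and 44.8, 38.3, 26.6, 11.7 and 23.4 TPM at 12 dpp, and Gata1, a transcription factor that Sertoli cells switch on in the first wave, read 12.9, 29.8, 29.1, 15.5 and 27.1 TPM at 8 dpp and 67.3, 79.8, 74, 72.5 and 61.8 TPM at 12 dpp (log2 fold change 1.66, SE 0.208, limma adjusted p = 0.000121). Defb19, a beta-defensin of Sertoli cells, rose by 0.86, Trf, the iron carrier transferrin, by 0.91 and Cst9, a cystatin, by 0.53. Wt1, the transcription factor that defines the lineage, read 177, 237, 245, 191 and 245 TPM at 8 dpp and 221, 211, 251, 230.3 and 201 TPM at 12 dpp and was not called, nor were the abundant markers Aard (1765 to 2149.9 and 1927 to 2214 TPM), Ctsl, a protease (1407 to 2009 and 1371 to 1793), and Clu. The summed level of the 36 markers was 13311 to 16200.2 TPM at 8 dpp and 15625 to 19239.8 TPM at 12 dpp.

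Junction genes of the blood-testis barrier also moved both ways, with 5 risen and 3 fallen members of 16 tested (4 and 3 of 16 without the 2 apart libraries). Cldn11, its main claudin, read 301, 395, 385, 326 and 373 TPM at 8 dpp and 671, 654, 676, 581 and 552 TPM at 12 dpp (log2 fold change 0.82, SE 0.088, limma adjusted p = 4.95e-05). Espn, espin of the ectoplasmic specialisation, read 65.2, 67.1, 78.1, 70.7 and 68.5 TPM at 8 dpp and 119.8, 118, 122, 118 and 112 TPM at 12 dpp (log2 fold change 0.75, SE 0.064, limma adjusted p = 9.85e-06). Both groups of both genes were tight and apart. Cgn, cingulin, rose by 0.59 and Jam3 by 0.39, whereas Jam2 (-0.36) and F11r (-0.43) fell with Gja1. Ocln, occludin, was not called (-0.13). The median of the list, 0.07, lay near that of all rows, 0.085, and median-ratio scaling moved both to about 0 (0.009 for all rows).

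**Figure D5:**
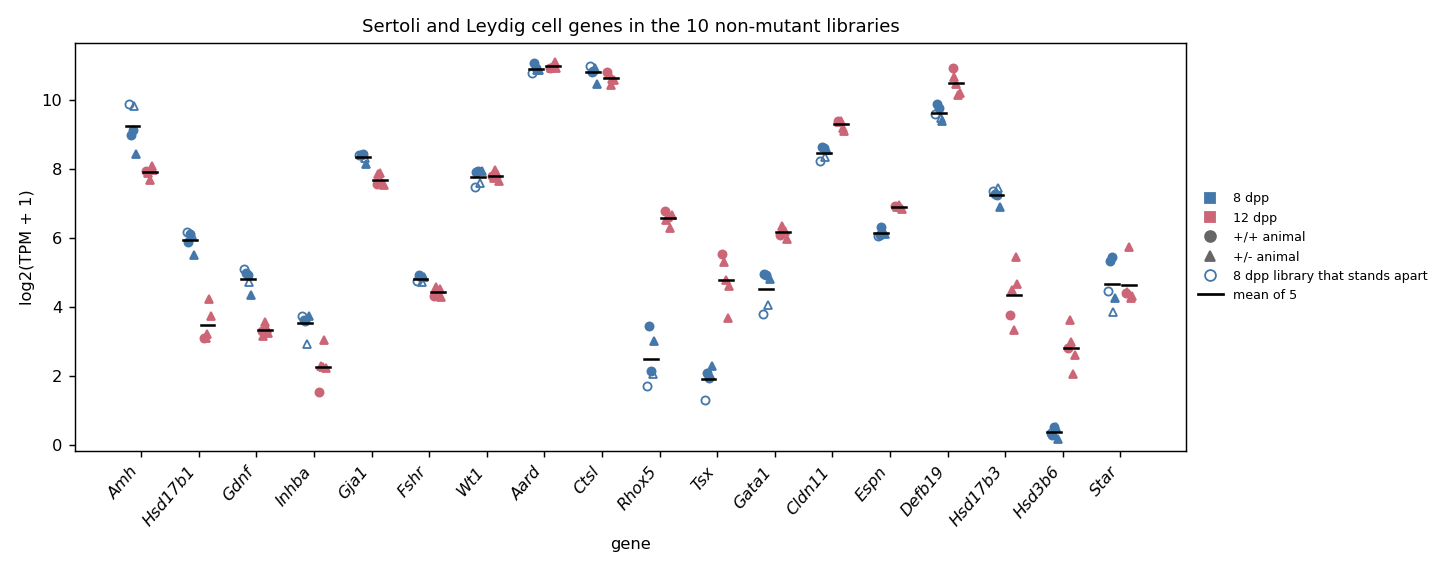
Level of 15 genes of Sertoli cells and their junctions and of 3 members of the Leydig cell list (Hsd17b3, Hsd3b6 and Star). The x axis gives the gene and the y axis log2(TPM + 1) in each of the 10 libraries. Colours and symbols show age, genotype and apart libraries, and bars the mean of 5. From left to right come 6 genes that fell (Amh to Fshr), 3 that were not called (Wt1, Aard and Ctsl) and 6 that rose (Rhox5 to Defb19). The 3 members of the Leydig cell list come last.

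Members of the Leydig cell list moved in opposite directions, in counts near the shares of all rows tested (20.1% risen and 12.8% fallen). In the list 3 rose and 3 fell of 14 tested (2 and 3 of 14 without the 2 apart libraries), and the median was -0.18; leaving out single libraries moved it between -0.37 and 0.02, the latter without +/+ replicate 1 of 12 dpp. Hsd3b6, the 3-beta-hydroxysteroid dehydrogenase of adult Leydig cells, read 0.25, 0.2, 0.43, 0.41 and 0.11 TPM at 8 dpp and 6.01, 11.2, 6.82, 3.12 and 5.01 TPM at 12 dpp (log2 fold change 2.45, SE 0.240, limma adjusted p = 2.40e-05) and passed the filter only through its 12 dpp values, and Srd5a1, a 5-alpha reductase, rose by 0.59. Akr1c14 fell by 1.06, and Hsd17b3, described above, had a log2 fold change of -2.91. Levels in bulk RNA do not tell which cells held the Hsd17b3 transcripts. Star, Cyp11a1 and Cyp17a1, which act early in steroid synthesis, were not called; Cyp17a1 spanned 16.5 to 93.7 TPM at 8 dpp and 8.06 to 67.6 at 12 dpp. Interstitial cells had been washed off, and the part of how many remained in these levels was not tested.

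In the peritubular myoid list 0 rose and 2 fell of 12 tested (0 and 3 of 12 without the 2 apart libraries), and Acta2, the smooth muscle actin, read 775, 675, 827, 664 and 928 TPM at 8 dpp and 637, 949, 579.7, 588 and 669 TPM at 12 dpp without a call. Endothelial markers gave 0 risen and 2 fallen members of 13 tested (0 and 1 of 13 without the 2 apart libraries) and erythroid markers 0 rose and 0 fell of 5. Macrophage and leukocyte markers rose: 9 rose and 0 fell of 13 tested (5 and 0 of 13 without the 2 apart libraries), with a median of 0.64. C1qc, a complement component of macrophages, read 3.98, 3.61, 3.21, 2.91 and 1.91 TPM at 8 dpp and 4.74, 9.77, 16.4, 7.78 and 8.51 TPM at 12 dpp, and Mrc1, the mannose receptor, read 3.12, 4.95, 4.43, 3.67 and 5.24 TPM at 8 dpp and 7.84, 11.7, 16.7, 11.4 and 10.5 TPM at 12 dpp (log2 fold change 1.24, SE 0.184, limma adjusted p = 0.000395). The summed level of that list was 60.1 to 77.3 TPM at 8 dpp and 76.6 to 168 TPM at 12 dpp, and Ptprc, the pan-leukocyte marker, stayed under the filter. In the -/- animals 1 of the 13 rose and 0 fell.

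The extracellular matrix list fell almost as a whole, with 1 risen and 23 fallen members of 28 tested (1 and 22 of 28 without the 2 apart libraries) and a median of -0.75. Without the apart libraries the median was -0.67. Col4a1, a basement membrane collagen, read 548, 333, 451, 472 and 383 TPM at 8 dpp and 239, 251, 245, 252 and 223 TPM at 12 dpp (log2 fold change -0.83, SE 0.111, limma adjusted p = 0.000195). Col1a1, a fibrillar collagen, read 265, 265, 260.1, 189 and 219.7 TPM at 8 dpp and 81.7, 124, 168, 143 and 109 TPM at 12 dpp (log2 fold change -0.96, SE 0.167, limma adjusted p = 0.0011). Every 12 dpp value lay under every 8 dpp value in both. Lamb1, a laminin chain, changed by -0.94, Fn1, fibronectin, by -0.66, Bgn, biglycan, by -0.99 and Fbn1, fibrillin, by -1.14. Lamb2, another laminin beta chain, was the one member that rose (0.48). Sertoli, myoid and interstitial cells all make matrix, and the part of their numbers in this fall was not tested. The summed level of the list was 6389 to 7629 TPM at 8 dpp and 4208 to 5112 TPM at 12 dpp.

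Imprinted genes of fetal and early growth fell: 0 rose and 15 fell of 17 tested (0 and 14 of 17 without the 2 apart libraries), with a median of -0.79. H19, the maternally expressed RNA of the Igf2 domain, read 321, 335, 375, 216 and 349.5 TPM at 8 dpp and 53.7, 59.1, 52, 71.8 and 106 TPM at 12 dpp (log2 fold change -2.23, SE 0.192, limma adjusted p = 1.08e-05), and Igf2, its paternally expressed neighbour, read 103, 113, 102, 62.7 and 107 TPM at 8 dpp and 39.3, 42.4, 44, 43 and 53.7 TPM at 12 dpp (log2 fold change -1.09, SE 0.145, limma adjusted p = 0.00018). Dlk1, expressed from the paternal chromosome 12, read 507, 385, 355, 284 and 353 TPM at 8 dpp and 75.6, 108, 155, 202 and 131 TPM at 12 dpp. In none of these did the ages overlap. Nnat, Plagl1 (-1.2), Mest (-1.17) and Cdkn1c, an inhibitor of the cell cycle (-0.69), fell too, so that genes expressed from either parental allele were among the fallen. Peg10 and Igf2r were the members not called, at -0.07 and -0.26.

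Histone variants mostly fell, with 2 risen and 7 fallen members of 13 tested (2 and 7 of 13 without the 2 apart libraries). H2afz, a variant of active promoters, went from 354, 292, 276, 384 and 230.1 to 221, 163, 171, 208 and 160.0 TPM (log2 fold change -0.72, SE 0.137, limma adjusted p = 0.00191), and H2afy2, a macroH2A, changed by -0.69. The testis variant Hist1h2ba, listed at 0 in 4 libraries of 8 dpp, was at 1.63, 2.52, 2.83, 5.65 and 0.51 TPM at 12 dpp. Polyadenylated libraries hold little of the messengers of replication-coupled histones, so those levels are uncertain.

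Immediate early genes, which tissue dissociation induces, and mitochondrial messengers moved with age as well. The first list gave 0 risen and 8 fallen members of 15 tested (0 and 4 of 15 without the 2 apart libraries), with a median of -0.49. Ier3 changed by -1.47 and Fosb by -0.90; Fos, at 653 to 1285 TPM at 8 dpp and 582 to 1265 at 12 dpp, was not called. Mitochondrial messengers took 63744 to 70411 TPM at 8 dpp and 74851 to 110814 TPM at 12 dpp, and 10 of 12 tested rose, or 8 without the apart libraries. What these shifts contribute to the results above was not tested.

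The remaining lists were counted in the same way, beside 20.1% of all rows tested risen and 12.8% fallen. Enzymes of DNA methylation gave 2 risen and 0 fallen members of 11 tested (0 and 0 of 11 without the 2 apart libraries), cholesterol synthesis gave 3 risen and 2 fallen members of 19 tested (1 and 1 of 19 without the 2 apart libraries) and targets of p53 gave 3 risen and 4 fallen members of 18 tested (2 and 2 of 18 without the 2 apart libraries). The glycolysis list gave 4 risen and 5 fallen members of 21 tested (4 and 4 of 21 without the 2 apart libraries), the proteasome list gave 3 risen and 1 fallen members of 18 tested (1 and 0 of 18 without the 2 apart libraries), and autosomal retrogenes of X-linked parents gave 3 risen and 0 fallen members of 8 tested (2 and 0 of 8 without the 2 apart libraries). Of 43 axoneme and flagellum genes 16 were tested, and 3 rose and 1 fell.

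The same step was set against that of the -/- animals in a fit of the 20 libraries of 8 and 12 dpp. By the number in the column names these animals were litter mates of the non-mutant ones. Limma called 0 of 19018 rows for a difference between the steps at an adjusted p under 0.05. In that fit, which leaves litter out, 300 rows had an unadjusted p under 0.05 (639 with litter as a block, also with 0 called). If no step differed 951 such rows would be expected, so both counts lay below that number. Prdm9 itself had a difference of -1.46 (SE 0.411, limma adjusted p = 1), or -1.94 (SE 0.316, limma adjusted p = 0.143) without the litter whose pair goes against its labels. In -/- animals the synaptonemal complex list had a median log2 fold change of 1.38, meiotic cohesin 1.63, extracellular matrix -0.84 and Sertoli cells 0.16. Sycp3 rose by 1.92 there, Dmc1 by 2.33 and Rhox5 by 3.93. A test that calls no row does not show that the steps are equal.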

How the data were processed

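The authors deposited gene-level TPM values made with Bowtie 1.0.0 and RSEM 1.2.8 on the mouse build mm10 (GRCm38), per the submitters' processing notes. TPM keeps no read depth, so no counting interval could be given, and strand use is not given in the sources used here, so overlapping and antisense genes cannot be told apart. The members and gene lists were chosen with earlier results of these data known. Symbols and coordinates came from GENCODE M21 (GRCm38), which matched 37709 of 38906 Ensembl rows. Rows over 1 TPM in at least 5 of the 10 libraries were tested on log2(TPM + 1) with limma 3.58.1 (R 4.3.3, moderated fit with a mean-variance trend, age as the single term, Benjamini-Hochberg adjustment over all rows tested, called under 0.05). Replicates are separate animals, and p-values weigh the age difference against the spread between animals of the same age. By the column number +/+ replicates 2 and 3 of 8 dpp share a litter, which this fit leaves out. A fit of all 30 libraries with litter as a random effect estimated a correlation of 0.313 within litters. It called 6082 rows. Genes named were Prdm9, the 15 risen and 15 fallen with the largest fold change, and list members the text turns on. The fit was tested on simulated data: of 100 rows given a log2 change of 1 it recovered 95, and of 100 given a change of 2 it recovered 100. Of its 206 calls over both sizes together 11 were false. The changed rows were drawn from those with a mean log2(TPM + 1) over 2, so recovery of lower rows was not tested. The simulated noise was independent between rows and held no shared difference between libraries, unlike the data.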

Additional observations from a re-analysis of the deposited data

Results flagged for a closer look

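A level was set aside for a closer look where the highest or lowest of the 5 libraries of an age lay far from the other 4 by Dixon's criterion (a gap over 0.71 of the range). This was tested in 406 groups of 5, 2 for each of the 203 genes named, and 22 met it. Chance flags about 1 in 20 groups. Nothing was left out on this account.

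At 8 dpp +/+ replicate 1 had the lowest value of Piwil1 (1.59 TPM), Prdm9 (1.82 TPM) and Sncb (0.56 TPM). At 8 dpp +/+ replicate 3 had the highest value of Hist1h2ba (1.01 TPM) and Mki67 (49.8 TPM). At 8 dpp +/- replicate 1 had the lowest value of Igf2 (62.7 TPM) and Inhba (6.60 TPM) and the highest value of Elf3 (26.3 TPM). At 8 dpp +/- replicate 2 had the lowest value of Clu (3359 TPM).

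At 12 dpp +/+ replicate 1 had the lowest value of Ccdc36 (13.7 TPM), Dmrt1 (180 TPM), Psmc3ip (14.1 TPM) and Rhox8 (253 TPM). At 12 dpp +/- replicate 1 had the highest value of Acta2 (949 TPM) and Ldhc (4.27 TPM). At 12 dpp +/- replicate 2 had the highest value of Kitl (164 TPM), Ptprc (1.61 TPM) and Star (52.7 TPM). At 12 dpp +/- replicate 3 had the highest value of Fosb (739 TPM) and Sfn (10.6 TPM). At 12 dpp +/- replicate 4 had the lowest value of Jam2 (75.2 TPM) and the highest value of Taf7l (299 TPM).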

How the results depend on the processing

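Every alternative kept the direction of the rows called with all 10 libraries, except quantile normalization, which kept 5785 of 5806. Calls numbered 4823 without a filter and 5058 with a filter at 5 TPM, and 4555 to 5622 when single libraries were left out (2682 to 3573 risen, 1873 to 2196 fallen). The 6 +/- libraries alone gave 2489 calls (1509 risen, 980 fallen), and a test against a log2 fold change of 1 gave 100 (69 and 31). Without both 8 dpp libraries that stand apart, an alternative added after seeing the data, 2319 rose. The replicate block gave 3634 calls, 2061 of them risen, but same-numbered libraries correlated at 0.15, -0.248 and 0.076, so the samples share only a number. The difference between the genotypes' steps stayed at 0 called rows in each alternative run.

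Of 162 called genes named in the text, 136 were called in every alternative that tested them, the test against a log2 fold change of 1 left aside, and none reversed. The +/- libraries alone lost 24 and the replicate block 14. Quantile normalization lost Rec114 (limma adjusted p = 0.0725), Rhox8 (0.0948) and Srd5a1 (0.0523); median-ratio scaling lost Rec114 (0.0666), litter as a random effect Rhox8 (0.0799) and Pou5f1 (0.0539), and the genotype covariate Srd5a1 (0.0511) and Pou5f1 (0.127). The medians of 10 of 41 lists changed sign in at least 1 alternative. They included those of barrier junctions, from 0.068 to -0.00 with median-ratio scaling, -0.01 with quantile normalization and -0.033 in the +/- libraries alone, and of the axoneme list, from 0.239 to -0.033 with the 5 TPM filter. Sertoli cells went from 0.053 to -0.034 with median-ratio scaling, and in the +/- libraries alone Leydig cells went from -0.181 to 0.158, erythroid cells from -0.544 to 0.185 and undifferentiated spermatogonia from 0.002 to -0.182. Medians of the endothelial, DNA methylation, cholesterol and division lists, all near 0, also crossed it; the cause was not tested. Age, litter and, in part, genotype differ together between the groups and cannot be told apart in full.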
